A study of Arabidopsis thaliana with 12 samples.

Results

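EXPA7 (AT1G12560, probe set 259525_at) and EXPA18 (AT1G62980, probe set 261099_at) are a pair of α-expansin genes of root hairs. Each was taken through the probe set that the array platform's annotation assigns to that gene alone, which gave 2 genes with 1 probe set each, out of 13350 genes that have a probe set of their own among 22746 probe sets that are no controls. The arrays were Affymetrix ATH1 GeneChips hybridised with RNA of whole Arabidopsis thaliana seedlings (ecotype Columbia), and the design set seedlings that overexpress MIF1, a small zinc-finger protein gene, against vector seedlings in darkness and in light. The 12 arrays fell into 4 groups of 3: MIF1OE grown in darkness, vector in darkness, MIF1OE in light and vector in light.

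MIF1OE seedlings were T2 plants that carry MIF1 behind the constitutive 35S promoter. Replicates 1 and 2 came from line 124 and replicate 3 from line 127, so the 3 arrays of each MIF1OE group stand for 2 transgenic lines. Vector seedlings came from lines 1, 4 and 7, numbered here as replicates 1, 2 and 3. All 4 groups were grown on 50 µg/mL hygromycin and harvested as resistant seedlings after 7 days at 22 °C, following 2 days of cold stratification. Seedlings grown in light were kept under a cycle of 16 h light and 8 h darkness. Dark-grown seedlings had 2 h of light to start germination. No probe set was named MIF1, so the level of the transgene could not be checked by name. Nothing in the labels ties an array to a separate culture or harvest, and the p-values measure the spread between these RNA samples.

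Expansins are secreted proteins that loosen the plant cell wall at acid pH without cutting its polymers, which lets a cell extend under turgor. EXPA7 and EXPA18 are textbook marker genes of the root hair cell: they are transcribed in hair-forming epidermal cells around the time a hair emerges, under basic helix-loop-helix factors that drive hair growth. Seedlings with reduced EXPA7 make shorter hairs. In RNA of whole seedlings, fewer hair cells and less RNA per hair cell cannot be told apart.

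In darkness, both expansins were higher in MIF1OE seedlings than in vector seedlings. EXPA7 had intensities of 36.3, 69.5 and 81.2 in the 3 MIF1OE dark arrays (62.3 ± 23.3, SD, n = 3), against 14.4, 15.5 and 16.4 in the vector dark arrays (15.4 ± 1.01, SD, n = 3). All 3 MIF1OE values lay above all 3 vector values, and the vector values were close together, whereas replicate 1 of MIF1OE stood between the vector arrays and the other MIF1OE arrays. These intensities are the authors' array-scaled values, on which the median probe set of an array lay between 57.3 and 70.4. EXPA7 therefore stood at a modest level on MIF1OE dark arrays, with 37.8%, 49.9% and 55.6% of probe sets below it, and at a low one on vector dark arrays, with 19.1%, 22.6% and 27.1% below it.

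EXPA18 had intensities of 59.0, 147 and 138 in MIF1OE dark seedlings (115 ± 48.3, SD, n = 3), against 30.9, 41.3 and 26.3 in vector dark seedlings (32.8 ± 7.67, SD, n = 3). The groups did not overlap, and the lowest MIF1OE array was again replicate 1. For this and every other comparison, the share of all probe sets whose groups did not overlap was not counted. Some genes named below had no overlap in darkness and were not called. On MIF1OE dark arrays 47.2%, 69.4% and 68.7% of probe sets lay below EXPA18, against 32.7%, 40.1% and 34.1% on vector dark arrays.

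In light, the same comparison showed no such gap. EXPA7 had 39.0, 52.8 and 38.1 in MIF1OE light seedlings, against 80.2, 44.7 and 62.9 in vector light seedlings. EXPA18 had 53.7, 51.7 and 54.9 in MIF1OE light seedlings, against 89.8, 47.2 and 52.5 in vector light seedlings. The groups overlapped at both genes. The highest light value of each gene was vector replicate 1, and the 3 MIF1OE light arrays of EXPA18 spanned the narrowest range of any group at that gene.

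**Figure D1:**
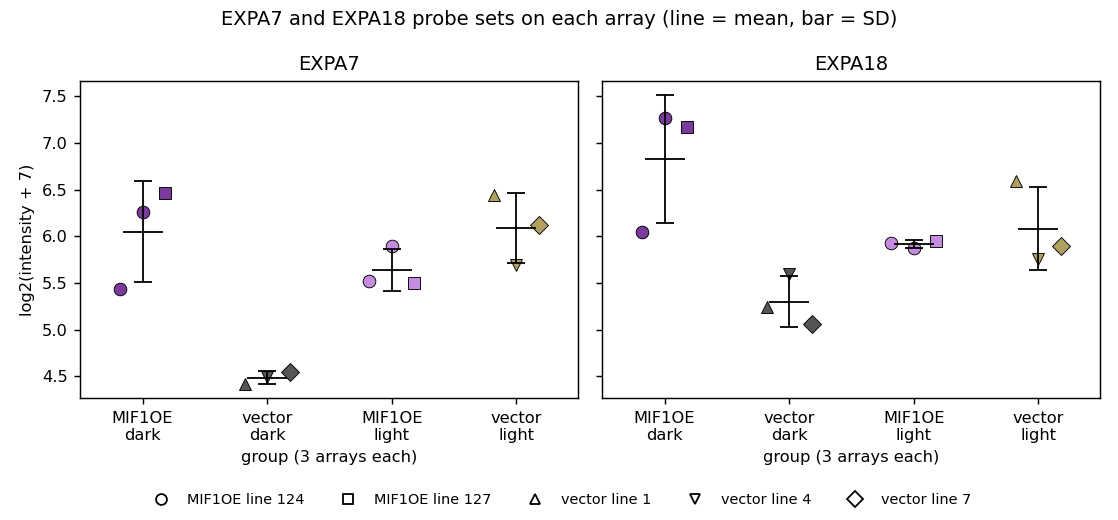
Log2(intensity + 7) of the EXPA7 (left) and EXPA18 (right) probe sets, with 1 point per array in each of the 4 groups of 3 arrays; the line is the group mean and the bar the SD. At both genes the 3 vector dark arrays lie below all arrays of the other 3 groups, which overlap one another in part.

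Ordered by mean log2(intensity + 7), EXPA7 was highest in vector light seedlings (6.09 ± 0.38), then MIF1OE dark (6.05 ± 0.54), MIF1OE light (5.64 ± 0.23) and vector dark (4.49 ± 0.07, SD, n = 3 each). EXPA18 was highest in MIF1OE dark seedlings (6.83 ± 0.68), then vector light (6.08 ± 0.45), MIF1OE light (5.92 ± 0.04) and vector dark (5.30 ± 0.27, SD, n = 3 each). At both genes each pair of neighbours among the upper 3 groups overlapped, while vector dark did not overlap the group next above it. The lowest group was thus the same for both genes and the highest was not. Probe sets differ in how brightly they hybridise, so the levels of EXPA7 and EXPA18 were not set against each other.

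The differences were tested with limma on log2(intensity + 7), with 1 model of 4 group means over all 12 arrays and Benjamini-Hochberg adjustment over the 15922 probe sets tested, and a probe set was called at an adjusted p under 0.05. The 95% intervals are those of single probe sets, unadjusted. In darkness EXPA7 was higher by 1.56 in MIF1OE than in vector seedlings on this log2 scale (SE 0.26, 95% interval 0.99 to 2.14, limma adjusted p = 0.00325). EXPA18 was higher by 1.53 (SE 0.31, 0.86 to 2.21, limma adjusted p = 0.00905). Both genes were called, against 12.9% of all probe sets tested in this comparison and 6.14% called higher. Adding 7 before the logarithm shrinks the fold of dim probe sets: the ratio of mean intensities, MIF1OE over vector, was 4.04 for EXPA7 and 3.49 for EXPA18, against 2.96 and 2.89 on the log2(intensity + 7) scale.

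By size, EXPA7 ranked 192nd and EXPA18 199th of the 978 probe sets called higher in MIF1OE seedlings in darkness. The call of EXPA7 held in each of 23 alternative settings, with differences between 0.96 and 1.98. The call of EXPA18 was lost when line 124 alone stood for MIF1OE (1.36, limma adjusted p = 0.0515). Without MIF1OE dark replicate 1, the lowest array of its group, the differences were 1.87 for EXPA7 and 1.92 for EXPA18.

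In light EXPA7 was lower by 0.45 in MIF1OE than in vector seedlings (log2 difference -0.45, SE 0.26, 95% interval -1.02 to 0.12) and was not called (limma adjusted p = 0.593). EXPA18 differed by -0.17 (SE 0.31, -0.84 to 0.51, limma adjusted p = 0.921) and was not called either. Of all probe sets tested, 0.986% were called in light and 0.659% were called higher. The sign for EXPA18 turned without vector light replicate 1 (0.090, limma adjusted p = 0.983).

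Whether the MIF1OE effect itself differed between darkness and light was tested as an interaction, the effect in darkness minus the effect in light. For EXPA7 it was 2.01 (SE 0.37, 95% interval 1.20 to 2.82, limma adjusted p = 0.0324), which was called, against 0.741% of all probe sets tested, or 118, and 0.433% with a higher effect in darkness. Among the 69 probe sets with a higher effect in darkness, EXPA7 ranked 41st by size. With plant source as a fixed block, 211 probe sets were called. The EXPA7 call depended on single arrays: leaving out any of 8 of the 12 ended it, with differences between 1.81 and 2.32 over all 12 omissions and adjusted p up to 0.0839. These were MIF1OE light replicates 1 and 3, vector light replicate 1, MIF1OE dark replicates 2 and 3, and all 3 vector dark replicates.

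For EXPA18 the interaction was 1.70 (SE 0.44, 95% interval 0.74 to 2.65, limma adjusted p = 0.114) and was not called. It was called only without MIF1OE dark replicate 1 (2.09, limma adjusted p = 0.0264). The unadjusted intervals of both genes lie above 0 and overlap. A difference between the genes in this interaction was not tested by its own contrast.

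**Figure D2:**
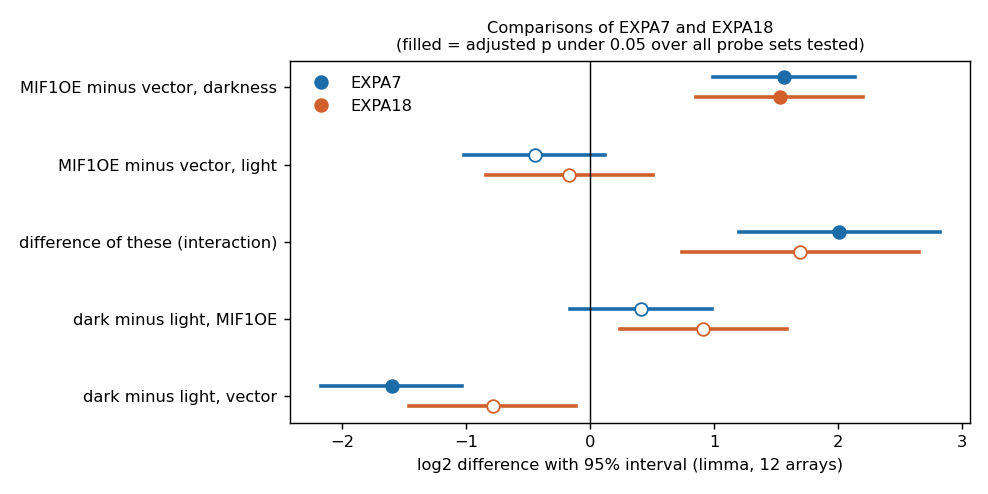
Log2 differences of EXPA7 and EXPA18 in the 5 comparisons of the design, with 95% intervals from limma on 12 arrays; each comparison is the first group named minus the second, on the log2(intensity + 7) scale. MIF1OE against vector is 1.56 and 1.53 in darkness and -0.45 and -0.17 in light, and dark against light is below 0 in vector seedlings and above 0 in MIF1OE seedlings.

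At both genes the estimated difference between darkness and light was below 0 in vector seedlings and above 0 in MIF1OE seedlings, and 1 of these 4 differences was called. In vector seedlings EXPA7 was lower by 1.60 in darkness than in light (log2 difference -1.60, SE 0.26, 95% interval -2.17 to -1.03, limma adjusted p = 9.36e-04), with a ratio of mean intensities, dark over light, of 0.247. It was called, in a comparison in which 30.3% of probe sets were called and 13.6% were called lower. EXPA18 in vector seedlings differed by -0.79 (SE 0.31, -1.46 to -0.11) with a ratio of 0.52, and was not called (unadjusted p = 0.0260, limma adjusted p = 0.0748), although its 3 dark arrays lay below its 3 light arrays. It passed after centring each array on its median (-0.87, limma adjusted p = 0.0456) and without MIF1OE dark replicate 1 (limma adjusted p = 0.0218), an omission that leaves the difference itself unaltered and acts only through the pooled spread.

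In MIF1OE seedlings neither gene was called between darkness and light, against 24.2% of all probe sets tested. EXPA7 was 0.41 higher in darkness (SE 0.26, 95% interval -0.16 to 0.98, limma adjusted p = 0.299), and its dark and light arrays overlapped. Without MIF1OE dark replicate 1 it was 0.72 higher and just passed (limma adjusted p = 0.0498). EXPA18 was 0.91 higher in darkness (SE 0.31, 0.24 to 1.59), with a ratio of mean intensities of 2.14 and no overlap between its dark and light arrays. Its limma adjusted p was 0.0504, and 0.0489 with plant source as a block. It also passed without MIF1OE dark replicate 1 (1.30, limma adjusted p = 0.00458) and without vector light replicate 1 (limma adjusted p = 0.0353). The latter array is in neither group compared, so its omission left the difference of 0.91 unaltered. The comparison in darkness, the dark against light difference of vector seedlings and the interaction all use the same 3 vector dark arrays, so their values at EXPA7 and EXPA18 stand side by side and none supports another.

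Whether the genes changed by unequal amounts was read from the within-array difference of their log2 values. The change of EXPA7 minus that of EXPA18 was 0.03 for MIF1OE against vector in darkness (exact permutation test, two-sided, p = 0.9) and -0.28 in light (exact p = 0.3). Between darkness and light it was -0.82 in vector seedlings and -0.50 in MIF1OE seedlings, each with an exact permutation p of 0.1 and an adjusted p of 0.2 over the 4 comparisons. With 3 arrays against 3 the smallest p this test can give is 0.1, so unequal change could not reach the threshold. Over the 12 arrays the log2 values of the pair correlated with r = 0.831, and their deviations from the group means with r = 0.820. Points of the same array share its RNA and its scaling, so these are descriptions.

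EXPA7 and EXPA18 belong to a wider programme of wall-building genes in growing hairs. A list of 42 root hair growth and wall genes, which did not include them, had 13 genes with a probe set of their own and 10 that were bright enough to test. It was chosen with earlier results of these data known, so its counts are a description. In darkness 7 of these 10 were higher in MIF1OE than in vector seedlings and 0 lower, with a median log2 difference of 2.01, against 6.14% called higher and a median of -0.002 over all probe sets tested. In light limma called 0 of 10, against 0.986% of all probe sets tested. At an unadjusted p under 0.05 there were also 0, and the median was -0.18. The count in darkness was between 2 and 7 over the other settings: 2 when line 127 alone stood for MIF1OE, and 5 with line 124 alone, without MIF1OE dark replicate 1 or without vector dark replicate 3. The summed intensity of the 10 genes was between 4553 and 4775 in MIF1OE dark arrays, against 2093 to 2891 in vector dark arrays.

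The 3 class III peroxidases of the list, enzymes that act on wall components with hydrogen peroxide, were all higher in MIF1OE seedlings in darkness. AT1G30870 had intensities of 162, 554 and 455 in MIF1OE dark seedlings, against 33.9, 43.5 and 27.4 in vector dark seedlings (log2 difference 3.09, SE 0.48, limma adjusted p = 0.0022). AT4G26010 had 131, 341 and 192 in MIF1OE dark seedlings, against 28.8, 52.8 and 18.5 in vector dark seedlings (2.48, SE 0.44, limma adjusted p = 0.00459). AT5G17820 had 669, 931 and 1020 in MIF1OE dark seedlings, against 145, 261 and 175 in vector dark seedlings (2.15, SE 0.30, limma adjusted p = 0.00131). None of these groups overlapped, and MIF1OE dark replicate 1 was the lowest of its group at all 3 peroxidases, as it was at EXPA7 and EXPA18. All 3 also had a called interaction, of 3.50, 3.30 and 2.37 in the same order of genes, but that of AT5G17820 was lost with plant source as a fixed block (limma adjusted p = 0.0568). Each of these interaction calls was also lost with either MIF1OE line alone and without some single arrays. The call of AT4G26010 in darkness did not hold with line 127 alone.

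The 4 extensins of the list are hydroxyproline-rich proteins that cross-link into the wall. They were also all called higher in MIF1OE seedlings in darkness, against 6.14% of all probe sets tested. HRGP1 had 820, 414 and 490 in MIF1OE dark seedlings, against 103, 125 and 63.2 in vector dark seedlings (2.47, SE 0.38, limma adjusted p = 0.0022). AT3G54580 had 139, 75.0 and 111 in MIF1OE dark seedlings, against 6.22, 38.3 and 8.48 in vector dark seedlings (2.42, SE 0.42, limma adjusted p = 0.00417). Its mean log2 value was 6.81 in MIF1OE dark arrays, but 4.39 in vector dark and 4.96 in MIF1OE light arrays, where the brightness cutoff was 4.94. AT1G23720 and AT5G06630 differed by 1.86 (SE 0.46) and 1.66 (SE 0.37). Both of these calls were lost with MIF1OE line 124 alone, and without MIF1OE dark replicate 1 or vector dark replicate 3. That of AT1G23720 was also lost without vector dark replicate 1. Over single omissions the limma adjusted p reached 0.0816 for AT1G23720 and 0.0601 for AT5G06630. With line 127 alone, which leaves 1 MIF1OE array per condition, none of the extensin calls in darkness held. The probe sets of HRGP1, AT1G23720 and AT5G06630 carry the suffix that marks possible cross-hybridisation, so that signal may be shared between extensins. Here MIF1OE dark replicate 1 was the highest of its group at 4 of 4 genes, opposite to its place at the expansins and peroxidases. Among all probe sets tested it was the lowest array of its group for 34.5%.

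Of the 10 root hair growth and wall genes, 3 were not called in darkness. CSLD2, a cellulose synthase-like protein needed for hair growth, differed by 0.33 (SE 0.18) between MIF1OE and vector seedlings, although its groups did not overlap. FER, the receptor kinase FERONIA, differed by -0.14 (SE 0.17). A further list of 18 root hair specific genes could add nothing, because only EXPA7 and EXPA18 among them had a probe set naming 1 gene.

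**Figure D3:**
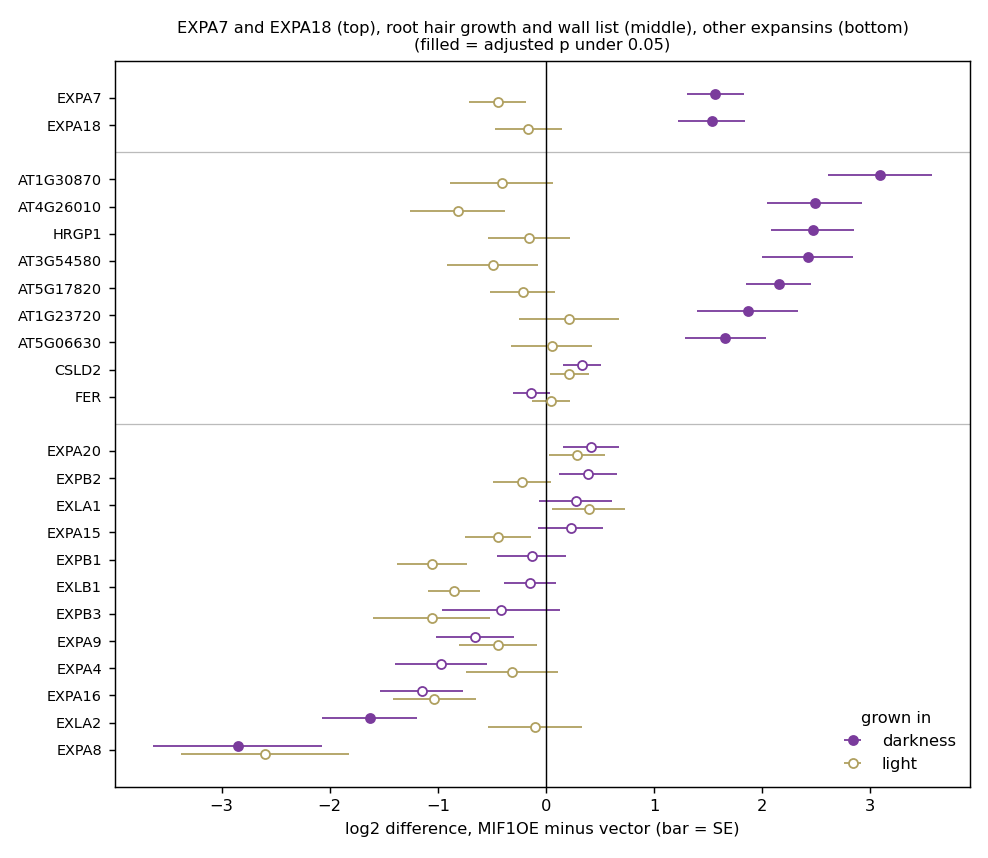
Log2 difference, MIF1OE minus vector, in darkness and in light for EXPA7 and EXPA18 (top), 9 of the 10 tested root hair growth and wall genes (middle) and the 12 other tested expansins (bottom); bars are SE and filled points have an adjusted p under 0.05. In darkness 7 of these wall genes lie at 1.66 or above, while 2 of the other expansins, EXPA8 and EXLA2, are called lower.

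The other expansins include genes that act outside the hair. Of 35 genes of the family, 18 had a probe set naming 1 gene and 14 were tested, 12 besides this pair. In darkness limma called 0 of the 12 higher in MIF1OE seedlings (0 at an unadjusted p under 0.05), against 6.14% of all probe sets tested. Lower were 2 of the 12, against 6.75% of all probe sets tested. The median log2 difference was -0.28, with a range of -2.85 to 0.41. EXPA8 had intensities of 58.8, 80.0 and 46.7 in MIF1OE dark seedlings, against 409, 504 and 536 in vector dark seedlings (-2.85, SE 0.78). EXLA2, an expansin-like gene, had 24.6, 34.0 and 33.5 in MIF1OE dark seedlings, against 91.0, 124 and 115 in vector dark seedlings (-1.63, SE 0.44). Neither gene's groups overlapped, but each call was lost when any 1 of the 6 dark arrays was left out. The dark groups of EXPA4, EXPA16 and EXPB2 did not overlap either, and these genes were not called.

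In light 0 of the 12 other expansins were called between MIF1OE and vector seedlings, against 0.986% of all probe sets tested. Of the 12, 4 were lower at an unadjusted p under 0.05, and the median was -0.44. In vector seedlings 4 of the 12 other expansins were higher in darkness than in light and 0 lower (0 at an unadjusted p under 0.05): EXLA2 by 1.82, EXPA4 by 1.59, EXPA9 by 1.59 and EXPA20 by 0.79. The EXPA20 call was lost with plant source as a fixed block (limma adjusted p = 0.0694), with no filter, with quantile normalization, with arrays centred on their median and with log2(intensity + 32). It was also lost without any 1 of the vector dark arrays, vector light replicates 1 or 2, or MIF1OE light replicate 1, with adjusted p up to 0.123. The EXPA4 call was lost without vector light replicate 2 (limma adjusted p = 0.0558). EXPA7 was the only 1 of the 14 tested family members called lower, against 13.6% of all probe sets tested. At an unadjusted p under 0.05, 2 of the 14 were lower. In MIF1OE seedlings 4 of the 12 were higher in darkness, namely EXPB1 by 1.59, EXPA9 by 1.38, EXPA20 by 0.91 and EXLB1 by 0.84. Under the fixed block EXPA20 was again not called (limma adjusted p = 0.0502). Leaving out 1 array ended the call of EXPA9 in 2 of 12 cases, of EXPA20 in 3 and of EXLB1 in 4, all of them MIF1OE arrays, and that of EXPB1 in 0. With line 127 alone for MIF1OE all 4 calls were lost. These counts stand beside 16.7% and 12.4% of all probe sets called higher in darkness in vector and in MIF1OE seedlings.

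Genes were then ranked by the Pearson correlation of their log2 values, over the 12 arrays, with the mean of the standardised values of EXPA7 and EXPA18. Among 8733 tested probe sets naming 1 gene, the 10 most alike were AT1G30870 (r = 0.970), AT4G25790 (0.958), AT5G04960 (0.941), AT2G41970 (0.941), GH9C1 (0.936), AT2G47540 (0.933), AT4G33730 (0.918), AT4G26010 (0.909), AT4G30320 (0.896) and AT1G26750 (0.895). Correlations of deviations from the group means, which leave out the group differences, were between 0.670 and 0.903 for these genes. A further 16 probe sets that name no gene or several exceeded the lowest of these correlations. The peroxidases AT1G30870 and AT4G26010 are also among the root hair wall genes above.

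Since they were chosen by likeness on these arrays, the 10 genes repeat the pattern of the expansins by construction, and the counts are a description. In darkness 9 were called higher in MIF1OE than in vector seedlings (0.42 to 3.09 over the 10), against 6.14% of all probe sets tested. In light limma called 0, against 0.986% of all probe sets tested, and 0 had an unadjusted p under 0.05. In vector seedlings 9 were called lower in darkness than in light, against 13.6% of all probe sets tested. All 10, with EXPA7 and EXPA18, had MIF1OE dark replicate 1 as the lowest array of its group and vector light replicate 1 as the highest. AT2G41970 had the smallest adjusted p among them in darkness (limma adjusted p = 4.25e-04), with intensities of 43.6, 70.1 and 58.7 in MIF1OE dark seedlings, against 18.4 or less in vector dark seedlings. The 5 genes with the lowest correlations were AT2G41050 (r = -0.863), AT2G35050 (-0.855), SEC10 (-0.849), AT3G21650 (-0.840) and AT2G45820 (-0.838). Of these 5, 3 were called lower in MIF1OE seedlings in darkness, against 6.75% of all probe sets tested. They too were chosen on these arrays, so this direction follows from the choice.

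**Figure D4:**
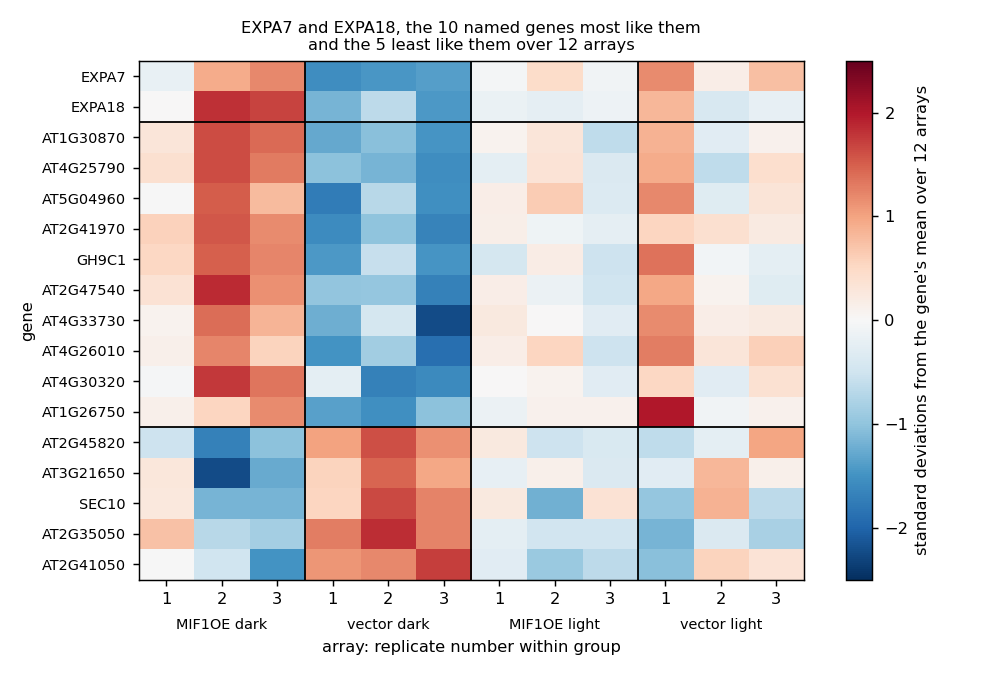
Values of EXPA7, EXPA18, the 10 genes most like them and the least alike genes named above on each of the 12 arrays, in standard deviations from each gene's mean over the arrays. For EXPA7, EXPA18 and the 10 most alike genes, vector dark arrays are low and MIF1OE dark replicates 2 and 3 are high. MIF1OE dark replicate 1 is the lowest of its group for all 12 of these genes. At each of the least alike genes, vector dark has the highest group mean.

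Markers of other tissues were read beside EXPA7 and EXPA18, as far as named probe sets allowed. Of 20 root genes expressed outside the hair cell, 1 was tested: PYK10, a root β-glucosidase, had intensities of 4904 to 5002 in MIF1OE dark seedlings, against 4194 to 5010 in vector dark seedlings (log2 difference 0.15, SE 0.16), and the groups overlapped. Of 17 shoot and leaf genes, 5 were tested (LHCB4.2, RCA, PSBW, PSAN and FMA). Of the 5, 0 were called between MIF1OE and vector seedlings in darkness or in light (0 in darkness and 1 in light at an unadjusted p under 0.05). Of all probe sets tested, 12.9% were called in darkness and 0.986% in light, so 0 of 5 says little. The summed intensity of the 5 was 3683 to 5422 in MIF1OE dark arrays, against 3765 to 7227 in vector dark arrays. Shoot and leaf genes did differ between darkness and light. In dark-grown vector seedlings 4 of 5 were called lower, against 13.6% of all probe sets tested. In dark-grown MIF1OE seedlings 3 of 5 were called lower, against 11.8% of all probe sets tested. Whether the share of root tissue in a seedling moved with EXPA7 and EXPA18 was not tested beyond these genes.

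Listed transcription factors, epidermal fate genes and hormone signalling genes were mostly out of reach, and a link of any of them to EXPA7 or EXPA18 was not tested. Of 24 listed transcription factors and epidermal fate genes, 4 had a named probe set and 2 were tested. AT1G68360 had 97.8, 82.7 and 49.4 in MIF1OE dark seedlings, against 155, 178 and 239 in vector dark seedlings (-1.27, SE 0.29, limma adjusted p = 0.0155). Its call was lost without MIF1OE dark replicate 3 or vector dark replicate 3, with adjusted p up to 0.0650. JKD, a zinc-finger regulator of epidermal cell fate in the root, differed by -1.09 (SE 0.46) and was not called, although its groups did not overlap. Both were higher in darkness than in light in vector seedlings, by 2.78 for AT1G68360 and 1.63 for JKD, where EXPA7 was lower. The JKD call was lost with log2(intensity + 1) and without vector light replicate 3 or vector dark replicates 2 or 3 (adjusted p up to 0.0739). Of 20 auxin and ethylene signalling genes 1 was tested: EIN3, the transcription factor of the ethylene response, differed by -0.49 in darkness and was not called.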

How the data were processed

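RNA of 12 seedling samples was hybridised to ATH1 arrays. The intensity values are the authors' deposited 1-colour values from GCOS, per the submitters' processing notes, which name neither version nor detection calls. With 2% trimmed off either end, all 12 arrays averaged 150.01, so the authors' scaling was kept. Intensities were not normalized further and were taken to log2(intensity + 7), a pseudocount that affects dim probe sets most. Of 22810 probe sets, 64 controls and the 6824 with the lowest means (30th percentile, log2 4.94) were left out. EXPA7's vector dark mean lay below that cutoff and its other 3 groups above it, and its calls were the same with no filter. Array number and brightness limit the precision.

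Genes were named from the platform annotation, updated through the RefSeq gene table (TAIR10.1): 13513 probe sets name 1 gene, 503 several and 8730 are unnamed here. limma 3.58.1 (R 4.3.3) gave the tests (residual df 8, prior df 4.08), after recovery of changes was checked on simulated data; exact permutation tests used scipy 1.17.1. Dark and light arrays that share a line and replicate number in the labels were taken as 1 plant source. Their deviations from group means correlated by 0.233 to 0.339 for the 6 sources. Arrays of different sources were not compared in this way, so these correlations cannot show whether the pairing is real. The main fit leaves the pairing out, and a blocked fit was an alternative. No 2 arrays were identical.

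Members and the 7 gene lists (174 genes, 33 tested) were chosen with earlier results of these data known. Named were both expansins, all measured members of the root hair lists and the expansin family, up to 4 called and 2 uncalled genes of other lists per comparison, and the 10 most and 5 least alike genes. Sequences were not used here, and 1 uncalled gene of the root hair growth and wall list is not reported here by name.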

Additional observations from a re-analysis of the deposited data

Results flagged for a closer look

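These 6 results stood out because the effect of MIF1 overexpression differed between darkness and light by the interaction test (effect in darkness minus effect in light, limma on log2(intensity + 7), 12 arrays). For EXPA7 the interaction was 2.01 (limma adjusted p = 0.0324), in a test that called 0.741% of all probe sets tested. Among the listed root hair wall genes it was 3.50 for AT1G30870 (limma adjusted p = 0.0402), 3.30 for AT4G26010 (0.0369), 2.37 for AT5G17820 (0.0285) and 2.91 for AT3G54580 (0.0498). For AT2G41970 it was 1.86 (limma adjusted p = 0.00866). That gene was chosen for its likeness to EXPA7 and EXPA18 on these same arrays, so its interaction repeats theirs by construction and is a description. In each of the 6 the MIF1OE minus vector difference was above 0 in darkness and below 0 in light, where it was not called.

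The calls differed in how far they rested on single arrays and settings. That of AT2G41970 held without any 1 of the 12 arrays, whereas leaving out 1 array ended the call in 8 of 12 cases for EXPA7, 9 for AT1G30870, 7 for AT4G26010, 7 for AT5G17820 and 10 for AT3G54580. With line 127 alone for MIF1OE all 6 calls were lost (adjusted p of AT2G41970 0.173), and with line 124 alone all but that of AT2G41970. The calls of AT1G30870 and AT4G26010 were also lost with no filter on dim probe sets, that of AT5G17820 with plant source as a fixed block (limma adjusted p = 0.0568), and that of AT3G54580 with log2(intensity + 1), a floor at 7, no filter or a mean trend in the moderation. With 3 arrays per group, single arrays far from their group were not tested.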

How the results depend on the processing

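Of 341 recomputed values, 291 kept direction and side of the threshold, 11 lost a call, 8 gained one, 1 changed sign (EXPA18 in light, 0.090 without vector light replicate 1) and 30 counts moved by over 1.5 times. With line 124 alone for MIF1OE, called probe sets numbered 1078 in darkness (2052 as reported), 48 in light (157) and 58 in the interaction (118), EXPA18 in darkness was 1.36 and the EXPA7 interaction 1.73, neither called. With line 127 alone, which leaves 1 MIF1OE array per condition assumed to vary like the others, they numbered 363 in darkness, 9 in the interaction and 22 between darkness and light in MIF1OE seedlings (3846), and the EXPA7 interaction was 2.57, not called. Pairing by plant source as a fixed replicate block gave 211 interaction calls and called EXPA18 in MIF1OE dark against light (0.91); it ended the AT5G17820 interaction call and the EXPA20 calls between darkness and light, and changed no other call of EXPA7 or EXPA18. A filter at the 50th percentile gave 103 calls in light and 63 in the interaction, a fit of only the arrays compared 57 in light, and log2(intensity + 1) 78 in the interaction. EXPA18 gained a call in MIF1OE dark against light with log2(intensity + 32) (0.72) and in vector dark against light with median-centred arrays (-0.87). Leaving out single arrays gave 1069 to 2375 calls in darkness, 45 to 265 in light, 59 to 190 in the interaction, 2971 to 4828 for dark against light in vector and 2762 to 4170 in MIF1OE seedlings. For EXPA7 the ranges were 1.36 to 1.87 (darkness), -0.65 to -0.27 (light), 1.81 to 2.32 (interaction) and 0.21 to 0.72 (MIF1OE dark against light). For EXPA18 they were 1.31 to 1.92, -0.33 to 0.090, 1.44 to 2.09 and 0.69 to 1.30, and -0.95 to -0.53 for vector dark against light. The causes were not tested.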
